A study of Homo sapiens with 42 samples.

Results

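The 7 genes SPARC, THBS1, VCAN, FN1, TGFBI, ELN and SPP1, which encode secreted matrix proteins, were followed across a comparison of a menin inhibitor and a MEK inhibitor in 2 acute myeloid leukaemia cell lines. They were chosen by symbol: each gene of the count table whose symbol was one of these 7 names was taken, and 7 of 58869 genes matched. The choice was made with earlier results of these data in view, so the changes below describe these genes and lend no support to the choice itself. Matricellular proteins are secreted into the matrix around cells but serve mainly to signal there, by binding integrins, CD36, CD44 and growth factors, rather than to bear load. SPARC binds collagen and limits cell adhesion, thrombospondin-1 (THBS1) activates latent TGF-beta and blocks angiogenesis, and osteopontin (SPP1) recruits and retains macrophages through integrins and CD44. Fibronectin (FN1) and the TGF-beta induced protein (TGFBI) are adhesive ligands of integrins, versican (VCAN) is a large proteoglycan that binds hyaluronan and signals through TLR2, and elastin (ELN) is the core of elastic fibres. Monocytes and macrophages make several of them, versican, fibronectin, TGFBI, thrombospondin-1 and osteopontin among them.

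The 42 bulk RNA libraries came from OCI-AML3, a line with cytoplasmic mutant nucleophosmin (NPM1c+), and NOMO1, a line with a rearranged KMT2A gene (KMT2A-r). Each line had 7 groups of 3 libraries: DMSO vehicle at day 3 and at day 6, the menin inhibitor VTP-50469 at 100 nM at day 3 and at day 6, the MEK inhibitor selumetinib at 100 nM, and both drugs together (combination) at day 3 and at day 6. Menin inhibitors release menin from KMT2A complexes, which hold leukaemic HOX and MEIS1 expression in both genotypes, and selumetinib blocks the kinase that activates ERK. The labels disagree on how long selumetinib alone was given (1 day in the descriptions, day 3 in part of the titles) and do not give its duration within the combination. No vehicle group of 1 day was among the samples, so selumetinib was compared with DMSO of day 3. Each genotype is represented by 1 line, so genotype and line cannot be told apart, and no label tells whether replicate libraries stem from different cultures, so p-values measure only the spread between these samples, which may be technical.

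The OCI-AML3 libraries held 15561248 to 24262960 counts each, and those of NOMO1 held 15264862 to 29168628. Of 10 genes of myeloid identity, 8 to 10 had a mean above 1 CPM (a count scaled to library size) in each OCI-AML3 group and 9 or 10 in each NOMO1 group, with none at 0. Over the libraries of NOMO1, marker lists of other cells summed to 45 to 309 CPM for epithelium (KRT8 foremost in most groups), 25 to 247 for fibroblasts and stroma, 11.2 to 60.5 for T and B cells, 15.1 to 23.2 for platelets (PF4 at 0), 2.14 to 14.9 for endothelium and 0 to 1.29 for erythroid cells. In OCI-AML3 the stroma list reached 71.2 CPM, the epithelial list 25.6 and the platelet list 6.26, and the others at most 2.48. In all, 2 groups and 2 libraries stood apart. DMSO day 3 of NOMO1 had 17.8% ± 0.197 (SD, n = 3) of its counts on mitochondrially encoded genes, against 3.17% ± 0.48 in DMSO day 6, and 51% of genes were called different between these vehicle groups. VTP-50469 day 3 replicate 1 of NOMO1 and VTP-50469 day 3 replicate 2 of OCI-AML3 differed from their partners far more than those partners did from each other. In the combination at day 6 of OCI-AML3, 12.3% ± 2.27 of counts were mitochondrial, against 3.24% ± 0.665 in its DMSO, and 16742 to 17438 genes had a count, against 20208 to 20482. That group holds all libraries of its condition, so these differences and the treatment cannot be told apart; removing the mitochondrial genes changed no call of a member. Values against DMSO day 6, or without either of the 2 libraries, are given beside day 3 results below.

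Levels are given as CPM of library totals scaled by edgeR's trimmed mean of M values within each line, and log2 fold changes with their standard errors come from edgeR's quasi-likelihood test with Benjamini-Hochberg adjustment over all genes of a line; a gene was called at an adjusted p below 0.05. After the filter on low counts, 16384 genes were tested in OCI-AML3 and 16561 in NOMO1. All 7 members were tested in NOMO1, and 5 in OCI-AML3, where ELN and SPP1 did not pass. In bulk RNA, fewer expressing cells and less RNA per cell cannot be told apart.

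The lines differed in which of these genes they used before any drug. Per kilobase of exon, which allows levels of different genes to be compared, SPP1 was the most abundant member in NOMO1 under DMSO day 6, at 67.5 ± 5.04 CPM per kb, rank 549 of 58595 genes with a length. SPARC followed at 7.87 ± 0.842 and TGFBI at 3.54 ± 0.148 CPM per kb. In OCI-AML3 under DMSO day 6, VCAN, at 4.41 ± 0.737 CPM per kb, and TGFBI, at 4.001 ± 0.427, were the most abundant and did not differ beyond their spread, and SPARC stood at only 0.0469 ± 0.0222. ELN had 0 counts in all 21 OCI-AML3 libraries, which allows at most 0.0077 CPM over the line by the limit of 3 counts, and SPP1 had 14 counts in 5 of the 21.

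**Figure D1:**
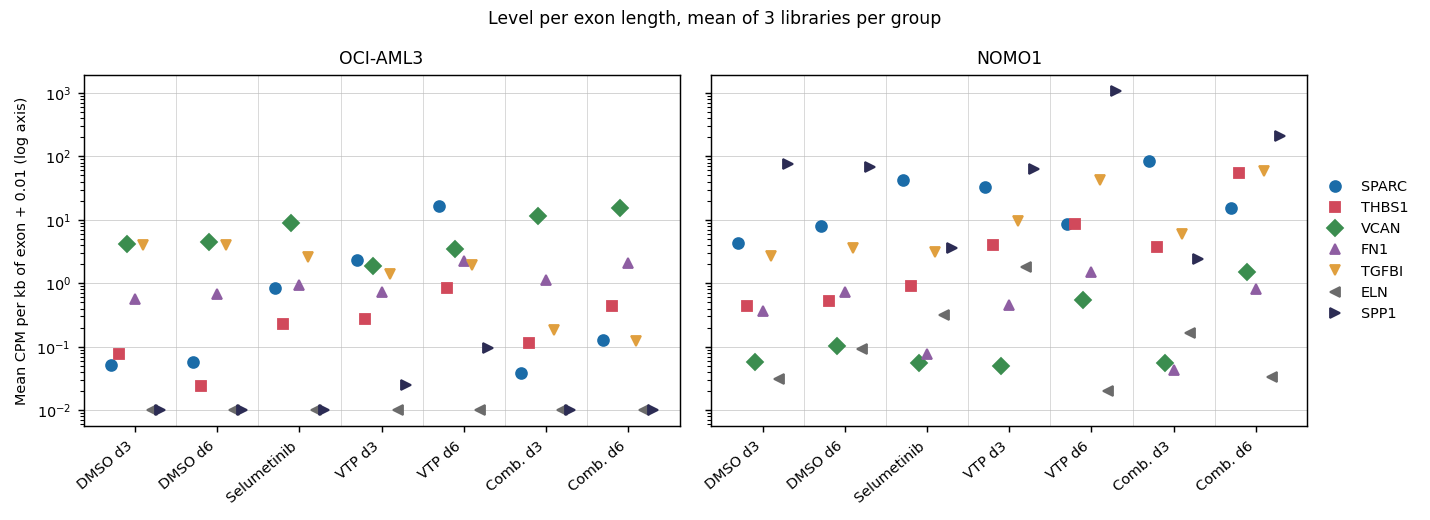
Mean level of each gene per kilobase of exon (CPM per kb + 0.01, log axis; mean of 3 libraries per group) in OCI-AML3 (left) and NOMO1 (right). SPP1 of NOMO1 at VTP-50469 day 6 is the highest point, at 1093 CPM per kb, and ELN lies on the floor in all OCI-AML3 groups.

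Within OCI-AML3, the share of tested members that changed was read against the share of all genes called in the same comparison. At day 3 VTP-50469 raised 1 and lowered 2 of 5 members, where it raised 6.49% and lowered 4.42% of all genes (10.9% called). At day 6 it raised 3 and lowered 2 of 5, where 18.8% rose and 16% fell (34.7% called). Selumetinib raised 1 and lowered 0 of 5 (11.7% and 15.6% of all genes, 27.4% called). The combination raised 1 and lowered 1 of 5 at day 3 (22.3% and 25.8%, 48.1% called) and raised 3 and lowered 1 at day 6 (23.1% and 26.5%, 49.6% called). Against VTP-50469 alone, it had 1 higher and 2 lower of 5 at day 3 (18.2% and 24%, 42.2% called) and again 1 higher and 2 lower at day 6 (16.7% and 24.6%, 41.3% called). Between the DMSO days of OCI-AML3, edgeR called 0 of 5 members and 0 genes in all (0%), with 174 genes at an unadjusted p below 0.05 and 0 called by DESeq2.

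In NOMO1 the background of comparisons with DMSO was higher, and at day 3 it depended on the vehicle group. With DMSO day 6 in place of DMSO day 3, 4499 genes in place of 8680 were called for VTP-50469 day 3. For selumetinib they were 5328 in place of 8957. VTP-50469 raised 4 and lowered 0 of 7 members at day 3, where 29.7% of all genes rose and 22.7% fell (52.4% called), and raised 4 and lowered 0 at day 6, where 23.7% rose and 25.1% fell (48.8% called). Selumetinib raised 2 and lowered 2 of 7 (28.9% and 25.2%, 54.1% called). The combination raised 3 and lowered 2 of 7 at day 3 (31.1% and 27.5%, 58.7% called) and raised 5 and lowered 0 at day 6 (27.3% and 28.2%, 55.4% called). Against VTP-50469 alone, it had 1 higher and 4 lower of 7 at day 3 (15.9% and 19.2%, 35.2% called) and 3 higher and 1 lower at day 6 (12.4% and 15.2%, 27.6% called). Between the DMSO days of NOMO1, 1 of 7 was higher and 0 lower (28.8% and 22.3% of all genes). In NOMO1 the number of members called in either direction for a treatment against DMSO was thus near the background. By direction, VTP-50469 at both days and the combination at day 6 lowered 0 of 7. The NOMO1 counts that involve VTP-50469 day 3 include ELN, whose value there is only described below. The comparisons within a line share control libraries, and their values are set side by side here without a correlation between them.

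**Figure D2:**
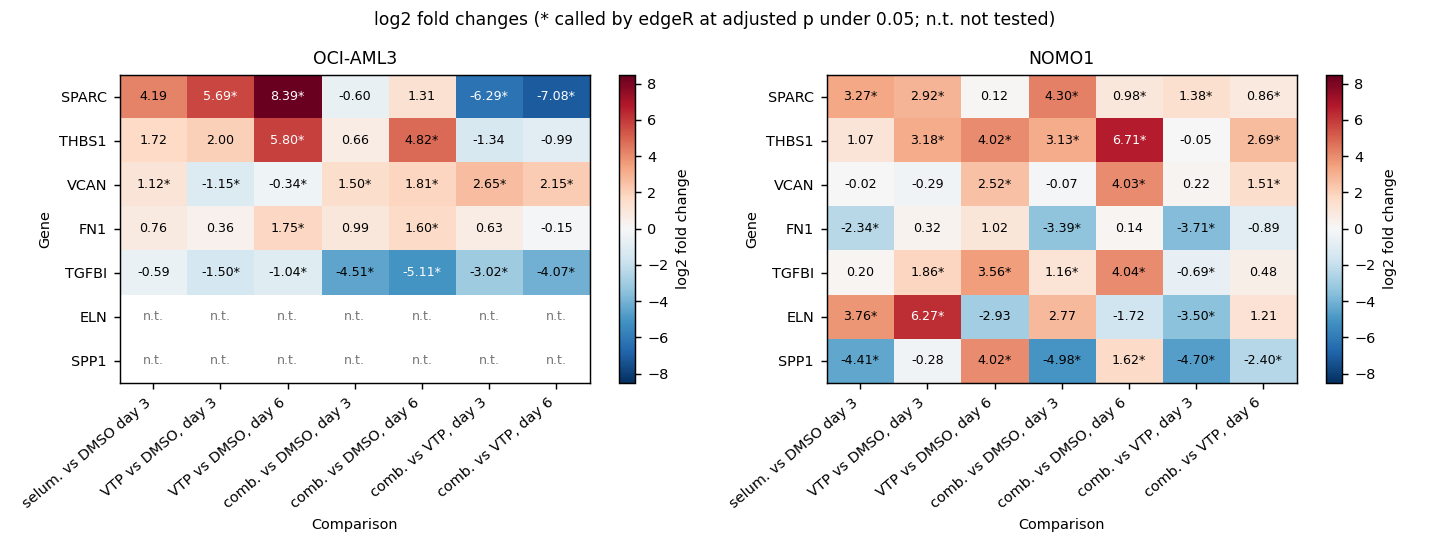
log2 fold changes of the 7 genes (rows) in 7 comparisons (columns) for OCI-AML3 (left) and NOMO1 (right); red is higher, blue is lower, an asterisk marks an adjusted p below 0.05 by edgeR and n.t. a gene not tested. TGFBI is lower in all 4 comparisons of VTP-50469 or the combination with DMSO in OCI-AML3 and higher in all 4 in NOMO1.

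Osteopontin gave the largest level of any member. In NOMO1 SPP1 stood at 162, 165 and 143 CPM under DMSO day 6 and at 2474, 2515 and 2619 CPM under VTP-50469 day 6. The groups did not overlap, and every treated library lay far above every vehicle library. The change was 4.02 ± 0.337 on the log2 scale, a 16.2-fold rise (adjusted p = 8.75e-08), and SPP1 then took 0.255% of all counts and rank 36 of 58595 genes per kilobase.

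Selumetinib moved SPP1 the other way. With selumetinib alone SPP1 was at 8.48, 4.49 and 11.9 CPM, against 174, 167 and 196 under DMSO day 3, a log2 change of -4.41 ± 0.372 (adjusted p = 7.15e-08). In the combination at day 3 it was at 4.09, 9.003 and 3.71 CPM, with a log2 change of -4.98 ± 0.383 against DMSO (adjusted p = 1.7e-08). Neither MEK inhibitor group overlapped with the vehicle, and against DMSO day 6 in place of day 3 the changes were -4.22 and -4.79.

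By day 6 of the combination, SPP1 stood between vehicle and menin inhibitor alone. Its values were 428, 523 and 495 CPM, a log2 change of 1.62 ± 0.307 against DMSO day 6 (adjusted p = 0.000328) and of -2.40 ± 0.313 against VTP-50469 (adjusted p = 3.92e-05). No group at day 6 overlapped with another. VTP-50469 at day 3 left SPP1 at 226, 117 and 98.7 CPM, around the vehicle values (log2 change -0.28 ± 0.303, adjusted p = 0.461; -0.09 against DMSO day 6, adjusted p = 0.864), but without replicate 1, the high library that stood apart, the change was -0.73 with an adjusted p of 0.018.

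Monocyte markers also changed, not always with SPP1. CD14, the monocyte endotoxin co-receptor, averaged 2.49 CPM under DMSO day 6 of NOMO1, 263 under VTP-50469 day 6 and 69.7 under the combination at day 6. CSF1R, the receptor for macrophage colony stimulating factor, averaged 14.4, 272 and 414 CPM in the same groups. Of the 10 myeloid genes, 9 were called higher under VTP-50469 day 6 and 0 lower (23.7% and 25.1% of all genes), and their summed level was 11700 to 12500 CPM against 7460 to 7890 under DMSO day 6. The sum was higher still in the combination, 16300 to 17200 at day 6 and 19300 to 19600 at day 3. Its largest part was MPO (myeloperoxidase), at means of 4700 CPM under DMSO day 6 and 6660 under VTP-50469 day 6. In the combination MPO was at 9650 CPM at day 6 and 12900 at day 3, so the sum mostly follows MPO and not the monocyte markers. The part of these myeloid genes in the change of SPP1 was not tested. In OCI-AML3, SPP1 had 0 counts in all 6 DMSO libraries and 1, 3 and 8 counts in the 3 libraries of VTP-50469 day 6, the group with most of its 14 counts.

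**Figure D3:**
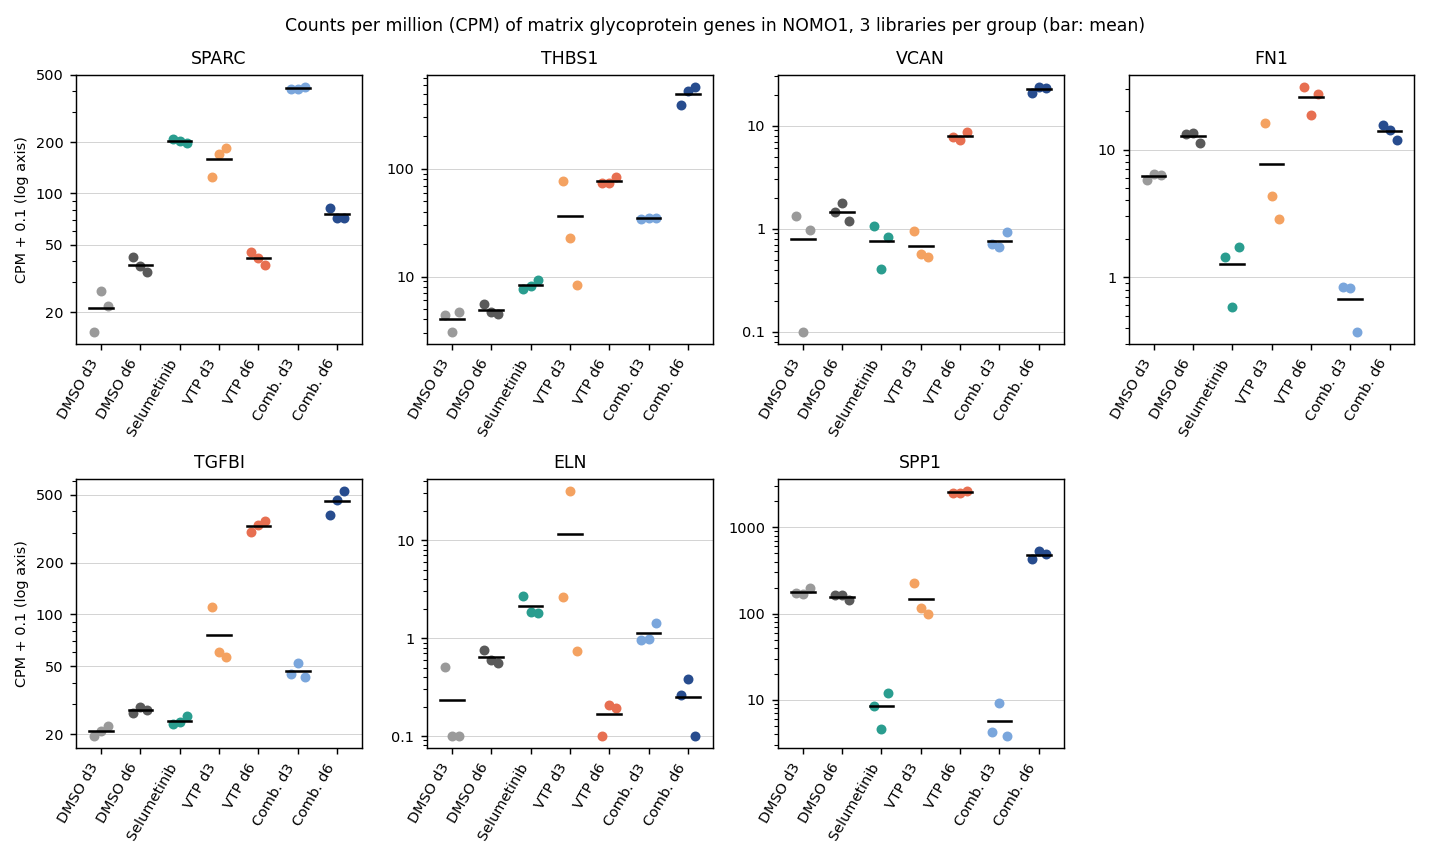
CPM + 0.1 (log axis) of each gene in every NOMO1 library; points are libraries in replicate order, bars are group means of 3. SPP1 at VTP-50469 day 6 lies at 2474 to 2619 CPM, and THBS1 and TGFBI are highest in the combination at day 6.

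Thrombospondin-1 rose furthest in the combination in NOMO1. THBS1 was at 5.46, 4.57 and 4.38 CPM under DMSO day 6, at 74.1, 74.5 and 84.1 under VTP-50469 day 6, and at 390, 532 and 578 under the combination at day 6. The 3 groups were fully separate. VTP-50469 alone raised it by 4.02 ± 0.571 on the log2 scale (adjusted p = 2.74e-05), the combination by 6.71 ± 0.614, which is 104.5-fold (adjusted p = 1.57e-07), and the combination stood 2.69 ± 0.484 above VTP-50469 (adjusted p = 0.000681). Selumetinib alone, at 7.64, 8.06 and 9.09 CPM, lay above the DMSO day 3 libraries at 4.28, 2.97 and 4.56 without passing the test (1.07 ± 0.666, adjusted p = 0.195), though it passed in a fit of only these groups (adjusted p = 0.00106).

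At day 3 the menin inhibitor group of NOMO1 was scattered for THBS1, at 77.4, 22.8 and 8.17 CPM, while the combination was tight at 34.2, 34.7 and 34.6. Both were called higher than DMSO, by 3.18 ± 0.604 (adjusted p = 0.00039) and 3.13 ± 0.602 (adjusted p = 0.000351), or 2.90 and 2.85 against DMSO day 6. Their difference was -0.05 ± 0.485 (adjusted p = 0.95), but without VTP-50469 replicate 1 the combination was 1.15 higher (adjusted p = 0.00586) and the rise under VTP-50469 was 1.98 in place of 3.18.

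In OCI-AML3 THBS1 stayed scarce. It had 2, 0 and 5 counts in the DMSO day 6 libraries, which is 0.118, 0 and 0.274 CPM, and reached 8.43, 3.85 and 11.005 CPM under VTP-50469 day 6 and 2.03, 4.31 and 5.44 under the combination. Neither treated group overlapped with the vehicle, and they overlapped with each other. The changes were 5.80 ± 1.27 (adjusted p = 0.00169) and 4.82 ± 1.27 (adjusted p = 0.00475), with wide errors from the 7 vehicle counts, and their difference of -0.99 ± 0.895 did not pass (adjusted p = 0.413). Against DMSO day 3, whose libraries lay at 0.324, 0.449 and 1.06 CPM, no THBS1 comparison of day 3 was called (VTP-50469 2.00 ± 1.03, adjusted p = 0.287, and 1.13 without its replicate 2), though selumetinib passed against DMSO day 6 (3.86, adjusted p = 0.0356).

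SPARC, the collagen-binding counter-adhesive protein, separated the lines. In OCI-AML3 it was nearly silent under DMSO day 6, at 0.236, 0.115 and 0.329 CPM, and reached 86.2, 73.3 and 76.8 CPM under VTP-50469 day 6. The log2 change was 8.39 ± 1.33 (adjusted p = 0.000144), with leaving out any 1 library giving 8.08 to 8.75. It went from 12 counts over 3 libraries to 4403, and the groups did not overlap.

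In the combination SPARC stayed low. It was at 0.393, 0 and 1.33 CPM in the combination at day 6 of OCI-AML3, with 2 libraries above and 1 below the vehicle range (1.31 ± 2.19 against DMSO, adjusted p = 0.656) and 7.08 ± 1.2 on the log2 scale below VTP-50469 (adjusted p = 0.000228). At day 3 the same order was seen, with 4.43, 26.1 and 3.12 CPM under VTP-50469 and 0.310, 0 and 0.0993 under the combination. The day 3 rise of 5.69 ± 1.4 (adjusted p = 0.0154) lost its call without replicate 2 of VTP-50469, the library that stood apart (4.11, adjusted p = 0.121), without any 1 of the 3 DMSO day 3 libraries (adjusted p 0.0567 to 0.0736), and in a fit of only the groups compared (adjusted p = 0.088). The gap between combination and VTP-50469 at day 3, -6.29 ± 1.49 (adjusted p = 0.00302), passed under each of the 14 alternatives tried, at -4.72 (adjusted p = 0.019) without VTP-50469 replicate 2.

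Some genes of stroma were also higher in treated OCI-AML3, and which of them were high differed between the treatments. The summed level of 10 fibroblast and stroma markers was 52.5 to 71.2 CPM under VTP-50469 day 6 and 0.987 to 1.96 under DMSO day 6, and 3 of the 7 tested were called higher (18.8% of all genes). In the combination it was 7.76 to 8.19 CPM at day 3, above vehicle, with FAP highest by group mean (3.42). At day 6 it was 8.94 to 15.8 there, again above vehicle and with FAP highest by group mean (5.31). Most of it under VTP-50469 day 6 was COL1A2, an alpha chain of type I collagen, at 59.9, 47.0 and 60.3 CPM against 7.53, 3.21 and 4.17 in the combination, while COL1A1 was at 2.04, 1.26 and 3.88, LUM was at 0 in all 3 libraries and DCN was at 0 in 2 of 3. The 5 epithelial markers summed to 9.48, 5.12 and 25.6 CPM under VTP-50469 day 6, against 0 to 0.23 under DMSO day 6. In VTP-50469 day 3 replicate 2, which had the highest SPARC of its group, COL1A2 was 18.5 CPM against 2.42 and 2.50 in its partners. Selumetinib replicate 1 of OCI-AML3, with SPARC at 9.82 CPM against 0 and 2.17 in its partners, had 22.9 CPM of stroma markers, COL1A1 at 8.03 and COL6A3 at 5.23 among them, against 3.00 and 9.15. The part of other cells in these values was not tested. SPARC under selumetinib was not called (4.19 ± 1.53, adjusted p = 0.0559), passed with DESeq2 (adjusted p = 0.022), passed with the filter of 1 CPM (adjusted p = 0.049) and without replicate 2 (4.76, adjusted p = 0.0185), and was 2.48 (adjusted p = 0.346) without replicate 1.

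**Figure D4:**
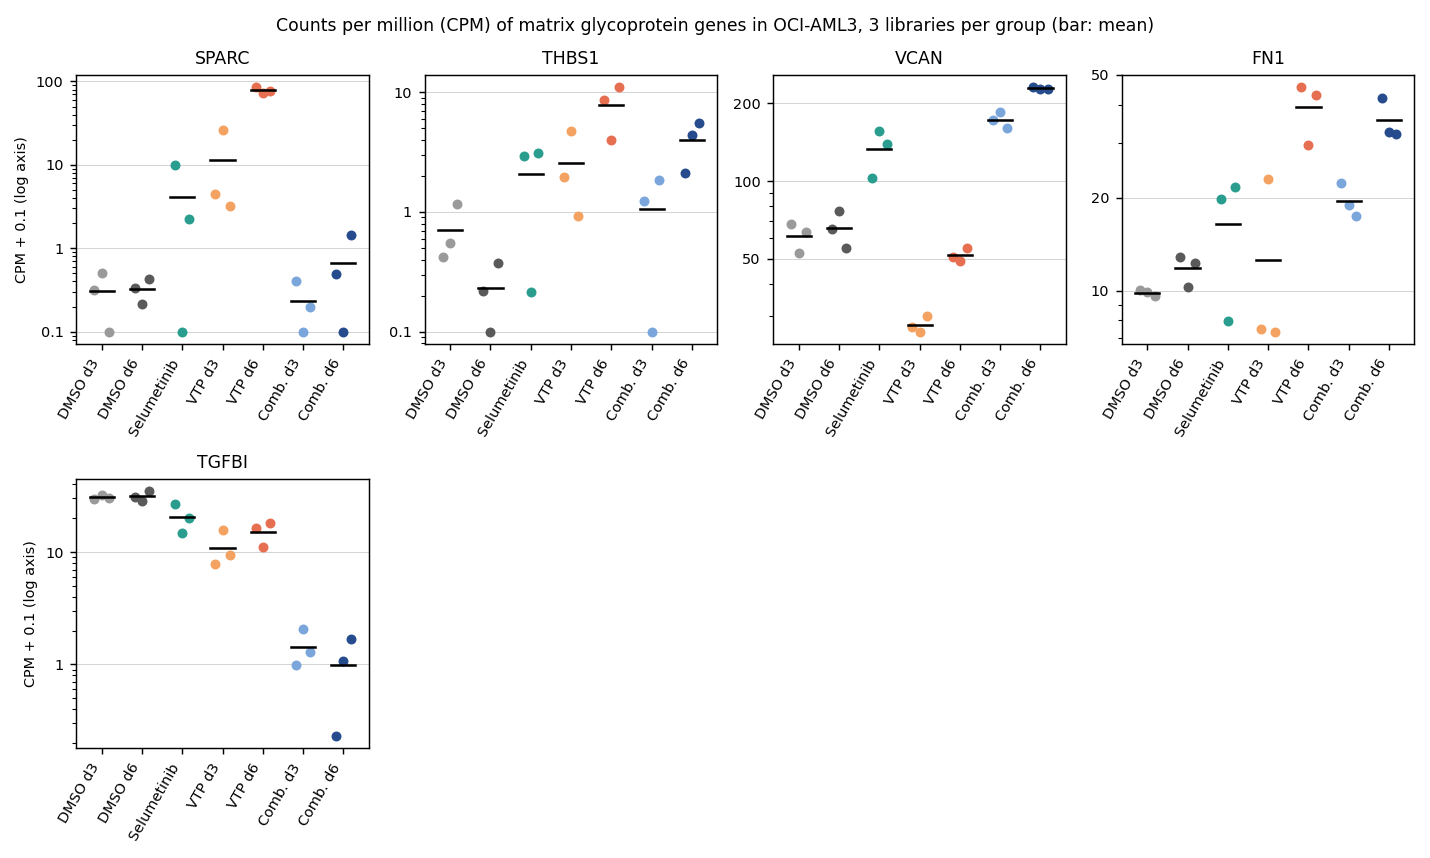
CPM + 0.1 (log axis) of the 5 tested genes in every OCI-AML3 library; points are libraries in replicate order, bars are group means of 3. SPARC lies at 73.3 to 86.2 CPM at VTP-50469 day 6 and at most at 1.33 CPM in the combination at day 6, while VCAN is highest in the combination.

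In NOMO1 SPARC was already present and rose early. It was at 15.2, 26.6 and 21.6 CPM under DMSO day 3, 125, 169 and 184 under VTP-50469 day 3, 208, 204 and 197 under selumetinib, and 411, 409 and 424 under the combination at day 3. These 4 groups did not overlap. The changes against DMSO day 3 were 2.92 ± 0.16 for VTP-50469 (adjusted p = 1.44e-11), 3.27 ± 0.162 for selumetinib (adjusted p = 2.65e-12) and 4.30 ± 0.167 for the combination (adjusted p = 4.22e-14). Because SPARC itself was higher in DMSO day 6 than in DMSO day 3 (0.85 ± 0.157, adjusted p = 0.000152), the 3 changes were 2.07, 2.42 and 3.45 against DMSO day 6, each still called. Without VTP-50469 replicate 1 its change was 3.07.

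By day 6 most of this rise was gone. SPARC was at 45.1, 41.3 and 37.6 CPM under VTP-50469 and at 42.3, 37.4 and 34.3 under DMSO day 6, overlapping groups with a difference of 0.12 ± 0.15 (adjusted p = 0.534). The combination, at 82.4, 71.3 and 71.4 CPM, was 0.98 ± 0.149 above DMSO (adjusted p = 1.32e-05) and 0.86 ± 0.149 above VTP-50469 (adjusted p = 0.000232). So the combination exceeded the menin inhibitor at both days in NOMO1 and fell far below it in OCI-AML3. COL1A1 averaged 23.7 to 235 CPM over the NOMO1 groups and was highest, with SPARC, in the combination at day 3.

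TGFBI fell in one line and rose in the other. In OCI-AML3 it was at 30.7, 28.2 and 34.8 CPM under DMSO day 6, 16.4, 10.96 and 18.04 under VTP-50469 day 6, and 0.131, 0.964 and 1.58 under the combination at day 6. The 3 groups did not overlap. The log2 changes were -1.04 ± 0.306 for VTP-50469 (adjusted p = 0.0119) and -5.11 ± 0.425 for the combination (adjusted p = 7.01e-09), and the combination differed from VTP-50469 by -4.07 ± 0.431 (adjusted p = 3.75e-07). CD14 averaged 3.05, 3.64 and 0.109 CPM in these groups, and its part in the result was not tested. The change under VTP-50469 was -0.86 with an adjusted p of 0.0621 without its replicate 2.

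At day 3 of OCI-AML3 TGFBI had already fallen. It changed by -1.496 ± 0.311 under VTP-50469 (adjusted p = 0.00315) and by -4.51 ± 0.39 under the combination (adjusted p = 1.08e-08), the former -1.86 (adjusted p = 0.000224) without VTP-50469 replicate 2. Selumetinib libraries, at 26.6, 14.8 and 19.9 CPM, all lay under the DMSO day 3 libraries at 29.7, 32.1 and 30.3 without passing the test (-0.59 ± 0.3, adjusted p = 0.17); a fit of only these groups called it (adjusted p = 0.0116).

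In NOMO1 TGFBI was at 26.5, 28.8 and 27.6 CPM under DMSO day 6, 301, 332 and 350 under VTP-50469 day 6, and 380, 465 and 524 under the combination at day 6. Both treated groups lay entirely above the vehicle, and the combination entirely above VTP-50469. The rises were 3.57 ± 0.205, 11.8-fold (adjusted p = 3.09e-10), and 4.05 ± 0.209, 16.5-fold (adjusted p = 3.73e-11). The step between them, 0.48 ± 0.182, was not called (adjusted p = 0.0615) but passed without replicate 1 of the combination (0.60, adjusted p = 0.0353). At day 3 the rises were smaller, 1.86 ± 0.201 under VTP-50469 (adjusted p = 7.16e-07) and 1.16 ± 0.2 under the combination (adjusted p = 9.14e-05), or 1.45 and 0.75 against DMSO day 6, and 1.49 for VTP-50469 without replicate 1. The combination differed from VTP-50469 at day 3 by -0.69 ± 0.189 (adjusted p = 0.00859), and by -0.32 (adjusted p = 0.0142) without VTP-50469 replicate 1, whose 110 CPM stood above its partners at 60.5 and 56.4; in a fit of only the 2 groups it was not called (adjusted p = 0.0744). Selumetinib alone, at 22.9, 23.6 and 25.4 CPM, did not pass (0.20 ± 0.206, adjusted p = 0.445), except on unscaled library totals (0.57, adjusted p = 0.022).

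Versican, the hyaluronan-binding proteoglycan, rose in each OCI-AML3 group that received selumetinib. VCAN was at 64.8, 76.6 and 54.7 CPM under DMSO day 6 and at 232, 228 and 228 under the combination at day 6, 1.81 ± 0.125 higher (adjusted p = 2.06e-11). Selumetinib alone, at 103, 156 and 139 CPM, was 1.12 ± 0.124 above DMSO day 3 (adjusted p = 2.49e-07), and the combination at day 3, at 172, 185 and 161 CPM, 1.498 ± 0.124 (adjusted p = 4.29e-10). VTP-50469 alone lowered it at day 3, to 27.2, 25.9 and 29.7 CPM (-1.15 ± 0.13, adjusted p = 1.32e-06; -1.10 without replicate 2). Each of these groups was separate from its vehicle. At day 6 of VTP-50469 the libraries, at 50.7, 48.9 and 54.9 CPM, touched the vehicle range, and the small change of -0.34 ± 0.126 (adjusted p = 0.0367) lost its call on unscaled library totals (adjusted p = 0.0631) and without any 1 of 4 of the 6 libraries, with -0.22 (adjusted p = 0.223) without DMSO day 6 replicate 2, -0.35 (0.0728) without DMSO day 6 replicate 1, and -0.33 (0.0938) and -0.31 (0.115) without VTP-50469 replicates 1 and 2 as adjusted p.

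In NOMO1 VCAN was scarce and rose only at day 6. It was at 1.34, 1.66 and 1.08 CPM under DMSO day 6, 7.69, 7.18 and 8.63 under VTP-50469, and 20.5, 23.7 and 22.9 under the combination. The 3 groups were separate, with log2 changes of 2.52 ± 0.388 (adjusted p = 9.58e-06) and 4.03 ± 0.395 (adjusted p = 7.62e-09) against DMSO and 1.51 ± 0.34 between the treatments (adjusted p = 0.00173). At day 3 and under selumetinib all means lay from 0.580 to 0.692 CPM, DMSO day 3 included, and no comparison with DMSO of either day was called.

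Fibronectin fell in NOMO1 under selumetinib and in the combination at day 3. FN1 was at 5.68, 6.39 and 6.18 CPM under DMSO day 3, 1.35, 0.485 and 1.64 under selumetinib, and 0.733, 0.722 and 0.274 under the combination at day 3. Both treated groups lay under all vehicle libraries, with changes of -2.34 ± 0.584 (adjusted p = 0.00293) and -3.39 ± 0.634 (adjusted p = 0.000224), or -3.39 and -4.45 against DMSO day 6. At day 6 the combination, at 15.6, 14.3 and 11.8 CPM, overlapped with DMSO at 13.2, 13.5 and 11.1 (0.14 ± 0.439, adjusted p = 0.814). VTP-50469 day 6, at 31.0, 18.5 and 27.4 CPM, lay above DMSO without a call (1.03 ± 0.435, adjusted p = 0.0637). That value passed in a fit of only these groups (adjusted p = 9.81e-06). VTP-50469 day 3, at 16.0, 4.21 and 2.78 CPM, rested on replicate 1: the change was 0.32 ± 0.475 with it (adjusted p = 0.604) and -0.79 without it (adjusted p = 0.0132), and -0.73 against DMSO day 6 (adjusted p = 0.269).

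In OCI-AML3 FN1 rose at day 6. It was at 12.7, 10.2 and 12.2 CPM under DMSO, 45.7, 29.5 and 43.0 under VTP-50469, and 42.1, 32.5 and 32.0 under the combination. Both treated groups lay above the vehicle and overlapped with each other, with changes of 1.75 ± 0.398 (adjusted p = 0.00262) and 1.60 ± 0.399 (adjusted p = 0.00343) and a difference of -0.15 ± 0.376 (adjusted p = 0.783). At day 3 the combination, at 22.2, 18.8 and 17.3 CPM, was above DMSO at 9.93, 9.77 and 9.53 but not called (0.99 ± 0.403, adjusted p = 0.0538); DESeq2 called it (adjusted p = 0.0282), as did 4 of the other settings. Under VTP-50469 day 3 replicate 2 had 22.8 CPM and its partners 7.42 and 7.26, and without it the combination was 1.396 above VTP-50469 (adjusted p = 0.000548) in place of 0.63 (adjusted p = 0.224). VTP-50469 itself was 0.36 ± 0.408 from DMSO (adjusted p = 0.728) and -0.41 without that library (adjusted p = 0.664). Under selumetinib FN1 was at 19.7, 7.85 and 21.5 CPM and was not called (0.76 ± 0.403, adjusted p = 0.198); without replicate 2 it was 1.09 (adjusted p = 0.0466).

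Elastin was scarce in NOMO1 outside 1 library. ELN had 9, 0 and 0 counts in the DMSO day 3 libraries and 0.650, 0.496 and 0.461 CPM in the DMSO day 6 libraries. Selumetinib libraries held 2.62, 1.76 and 1.68 CPM, above both vehicle groups, and the combination at day 3 held 0.862, 0.874 and 1.33. The change under selumetinib, 3.76 ± 1.41 (adjusted p = 0.0342), was 1.92 and not called against DMSO day 6 (adjusted p = 0.219), and it lost its call without either of 2 DMSO libraries or either of 2 selumetinib libraries (adjusted p 0.0504 to 0.105) and with no filter on low counts (adjusted p = 0.0676). Without DMSO day 3 replicate 1, which held all 9 vehicle counts, the fitted value was 8.58, which is no bound because the vehicle is then at 0. At day 6 ELN was at most 0.109 CPM under VTP-50469 and 0.286 CPM under the combination, both below all DMSO day 6 libraries and not called (-2.93 ± 1.73, adjusted p = 0.183, and -1.72 ± 1.51, adjusted p = 0.362). In a fit of only its groups the former passed (adjusted p = 0.00376).

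VTP-50469 day 3 of NOMO1 had ELN at 2.50, 31.6 and 0.642 CPM, a mean set by replicate 2; since the gene was chosen with this value known, it is given as a description with no test. That library also held KRT19, an epithelial keratin, at 22.3 CPM against 0 and 0 in its partners, CDH1 (E-cadherin) at 3.75 against 0 and 0, and EPCAM at 10.1 against 3.30 and 3.51. Its summed epithelial markers were 217 CPM against 186 and 182, and KRT8 and KRT18 were present in all NOMO1 groups, DMSO included. The part of other cells in the ELN value was not tested.

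Whether the drugs together did more or less than the sum of each alone was tested at day 3 as an interaction on the log2 scale, with the reservation that the length of selumetinib treatment may differ between its groups. In OCI-AML3, 1 of 5 members was called higher and 2 lower, against 2.67% and 6.27% of all genes (8.94% called). SPARC stood at -10.48 ± 2.14 (adjusted p = 0.00612), TGFBI at -2.43 ± 0.5 (adjusted p = 0.00408) and VCAN 1.53 ± 0.177 above the sum (adjusted p = 5.81e-06). Without VTP-50469 replicate 2 they were -8.92, -2.07 and 1.48, each still called. The size of the SPARC value is poorly known. It rests on 8 counts over the combination libraries and 12 over DMSO day 3, and on a selumetinib change of 4.19 that was not called. In NOMO1, 0 of 7 were called higher and 3 lower, against 15.3% and 21.7% of all genes (37% called). SPARC stood at -1.89 ± 0.21 (adjusted p = 8.81e-07) and TGFBI at -0.89 ± 0.28 (adjusted p = 0.0192). The other is ELN, given no value because it rests on the group described above and on 9 vehicle counts in 1 library. SPARC of NOMO1 was thus higher in the combination than under either drug and short of the sum of both log2 changes. A sum of log2 changes is a product of folds, so this does not speak of the sum in CPM. The means were 21.1 CPM under DMSO day 3, 159 under VTP-50469, 203 under selumetinib and 415 under the combination. With DMSO day 6 as the vehicle, SPARC was -1.04 (adjusted p = 0.00213) and TGFBI -0.49 without a call (adjusted p = 0.293), and without VTP-50469 replicate 1 they were -2.06 (adjusted p = 1.62e-07) and -0.54 (adjusted p = 0.00493). THBS1 of NOMO1, at -1.12 ± 0.825 (adjusted p = 0.317), passed without VTP-50469 replicate 3 (-1.62, adjusted p = 0.0333) and was 0.07 without replicate 1 (adjusted p = 0.943).

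The difference between the lines was itself tested at day 6, in 1 fit of all 42 libraries over 18707 genes. For VTP-50469 against DMSO, 2 of the 5 members tested in both lines responded higher in NOMO1 and 1 lower (16.6% and 16.8% of all genes, 33.4% called). For the combination against DMSO, 2 were higher and 0 lower (18.6% and 16.3%, 34.9% called). For the combination against VTP-50469, 3 were higher and 0 lower (11.4% and 9.18%, 20.6% called). TGFBI differed in all 3, with NOMO1 above OCI-AML3 by 4.67 ± 0.346 (adjusted p = 4.06e-12), 9.21 ± 0.448 (adjusted p = 3.37e-16) and 4.54 ± 0.479 (adjusted p = 3.42e-08). The response of SPARC to VTP-50469 differed by -8.20 ± 1.05 (adjusted p = 2.68e-07), and the step from VTP-50469 to the combination was 7.92 ± 0.925 higher there (adjusted p = 2.36e-07). VCAN differed under VTP-50469 (2.92 ± 0.32, adjusted p = 4.64e-09), where it rose in NOMO1 and was slightly lower in OCI-AML3, and under the combination (2.27 ± 0.311, adjusted p = 3.68e-07), where it rose in both, in NOMO1 from a far lower vehicle level. The step of THBS1 from VTP-50469 to the combination was 3.68 ± 0.795 higher in NOMO1 (adjusted p = 0.00107), while its responses to each treatment against DMSO did not pass (-1.74 ± 1.89, adjusted p = 0.547, and 1.95 ± 2.87, adjusted p = 0.678), except with no filter on low counts (adjusted p = 0.000361 and 0.04). FN1 was called in none of the 3, with -1.404 ± 0.598 (adjusted p = 0.0693) for the combination against DMSO, a value that passed under 3 alternatives (adjusted p = 0.0426, 3.49e-08 and 3.01e-05), and with no filter it passed in the other comparisons too (adjusted p = 0.0165 and 0.0218). VCAN of the combination against VTP-50469, at -0.65 ± 0.264 (adjusted p = 0.0793), passed with DESeq2 (adjusted p = 0.0103). It also passed in edgeR with no filter (adjusted p = 0.00263) and in a fit of only the compared groups (adjusted p = 0.000559). For ELN and SPP1 no difference is given, since OCI-AML3 groups were at 0 counts.

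**Figure D5:**
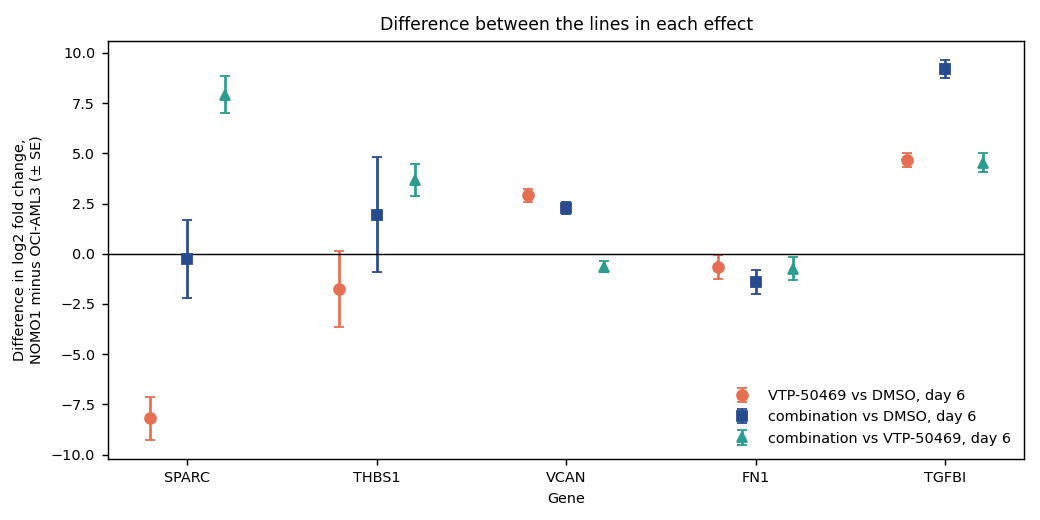
Difference between NOMO1 and OCI-AML3 in the log2 fold change of 5 genes in 3 comparisons of day 6 (symbols, with standard errors; above 0 means a higher response in NOMO1). TGFBI lies above 0 in all 3, from 4.54 to 9.21, and SPARC lies at -8.20 for VTP-50469 and at 7.92 for the combination against VTP-50469.

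Over the 7 group means of NOMO1, THBS1 and TGFBI tracked each other (Pearson r = 0.94 of log2 CPM), as did VCAN and TGFBI (r = 0.91) and FN1 and SPP1 (r = 0.97), while SPARC ran against SPP1 (r = -0.74) and FN1 (r = -0.79). In OCI-AML3 THBS1 and TGFBI had r = -0.32 and VCAN and TGFBI r = -0.68. These points share libraries and vehicle groups, and the values are descriptions. Stretches upstream of the genes of 2 NOMO1 pairs, THBS1 with TGFBI and FN1 with SPP1, are shown so that the genes that tracked each other can be read side by side. They are from RefSeq (GRCh38.p14), 5′ to 3′ on the strand of the gene, and capitals mark motif matches that lie whole in the stretch shown. Each begins 250 bases before the RefSeq start and ends where the gene begins in GENCODE 29, which for TGFBI, FN1 and SPP1 is short of the RefSeq start.
THBS1, chr15:39580829-39581078, plus strand: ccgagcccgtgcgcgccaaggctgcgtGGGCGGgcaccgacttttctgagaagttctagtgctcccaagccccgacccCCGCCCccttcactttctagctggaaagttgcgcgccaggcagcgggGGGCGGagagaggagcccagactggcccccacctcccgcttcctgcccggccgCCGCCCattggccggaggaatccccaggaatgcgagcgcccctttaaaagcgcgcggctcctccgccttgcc
TGFBI, chr5:136028738-136028894, plus strand: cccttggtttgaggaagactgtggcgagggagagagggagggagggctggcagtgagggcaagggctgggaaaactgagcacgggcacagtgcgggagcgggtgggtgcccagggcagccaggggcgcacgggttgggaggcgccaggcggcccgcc
FN1, chr2:215436173-215436318, minus strand: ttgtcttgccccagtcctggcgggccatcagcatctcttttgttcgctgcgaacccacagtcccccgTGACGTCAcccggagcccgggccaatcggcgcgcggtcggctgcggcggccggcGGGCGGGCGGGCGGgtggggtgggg
SPP1, chr4:87975464-87975649, plus strand: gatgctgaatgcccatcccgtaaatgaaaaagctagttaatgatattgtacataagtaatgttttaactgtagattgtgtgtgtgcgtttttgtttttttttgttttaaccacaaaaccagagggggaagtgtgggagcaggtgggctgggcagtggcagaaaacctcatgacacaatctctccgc

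Promoter entries matched 6 of the 7 genes by symbol, ELN being the one without, and 5 motifs were searched on both strands in the 250 bases before each RefSeq start, so matches beyond the printed stretch are counted too. A GC box (GGGCGG), the site of Sp1 family factors, was found 4 times in THBS1, 6 times in FN1, 3 times in TGFBI, once in VCAN and in neither SPARC nor SPP1; it occurs in 42.6% of 35116 promoters of the same length. The full cyclic AMP response element (TGACGTCA) was found in FN1, 183 to 176 bases before the RefSeq start, and occurs in 1.6% of promoters. An AP-1 site (TGANTCA, 6.6% of promoters), a TATA box (TATAAA, 10.7%) and the CArG box (1.2%) were found in none of the 6. The long FN1 run of capitals holds 3 overlapping GC boxes; its other 3 and all 3 of TGFBI lie beyond the printed stretches. The FN1 and SPP1 windows share none of these motifs, and a match is a description of the sequence, not of binding.

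The genes whose group means were most like each member were found over the 14 group means centred within lines, or over the 7 of NOMO1 for ELN and SPP1, among named genes tested. SPP1 was closest to DUSP4, a phosphatase of ERK (r = 0.995), then EMP1 and FCMR. TGFBI was closest to ORAI2, a calcium channel subunit (r = 0.973), and VCAN to PLXDC2 (r = 0.948). THBS1 was closest to TGFA, an EGF receptor ligand (r = 0.937), FN1 to KBTBD2 (r = 0.93) and SPARC to LYPD6B (r = 0.891). ELN was closest to SLC35E3 (r = 0.986), over means of which one includes the single high library.

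Many receptors of these proteins rose under VTP-50469 at day 6. Of 23 receptors listed, 19 were tested in NOMO1, where VTP-50469 raised 14 and lowered 2 (median log2 change 0.63, against -0.01 over all genes), where 23.7% of all genes rose and 25.1% fell. CD36, a thrombospondin and fatty acid receptor, rose by 5.85, from 3.43 to 196 CPM, ITGB5, a subunit of a vitronectin and osteopontin receptor, by 3.64, and ITGA9, a subunit of an osteopontin receptor, by 3.41. The combination at day 6 raised 12 and lowered 2 (27.3% and 28.2% of all genes), with CD36 6.05 and ITGA9 4.31 higher. In OCI-AML3, 20 were tested and VTP-50469 raised 9 and lowered 2 (median 0.21; 18.8% and 16% of all genes), CD47, a thrombospondin receptor, by 0.92 and ITGA3 by 2.44. TLR2, through which versican signals, rose by 1.47 in NOMO1 and changed by -1.35 in OCI-AML3. ITGB5 was called lower in OCI-AML3 under selumetinib (-1.26) and the combination at day 6 (-1.82).

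Many proteases that cut these proteins, and their inhibitors, rose with VTP-50469 at day 6. In NOMO1 13 of 20 tested were higher and 2 lower (median 1.15; 23.7% and 25.1% of all genes), MMP9 by 3.25 to a mean of 996 CPM, MMP14 by 3.23 and the inhibitor TIMP1 by 1.24. In OCI-AML3 11 of 19 were higher and 2 lower (median 0.90; 18.8% and 16% of all genes), MMP1, a collagenase, by 6.93, from 0.193 to 24.0 CPM, and TIMP1 by 1.65. Selumetinib alone gave 4 higher and 9 lower of 20 in NOMO1 (median -0.55; 28.9% and 25.2% of all genes), with TIMP1 at -1.35 and MMP14 at -1.45, and 12 higher and 3 lower of 19 in OCI-AML3 (median 0.80; 11.7% and 15.6% of all genes). The difference between the lines over the list was not tested.

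TGF-beta signalling induces TGFBI, THBS1 and FN1 in many cells, and its genes were counted in the same comparisons. In NOMO1 VTP-50469 at day 6 raised 9 of 18 tested and lowered 0 (median 0.89; 48.8% of all genes called), the co-receptor ENG by 1.95, the receptor TGFBR2 by 1.79 and the inhibitory SMAD7 by 0.83, and the combination raised 11 and lowered 0 (median 0.47; 55.4% called). In OCI-AML3 VTP-50469 at day 6 raised 6 of 16 and lowered 2 (median 0.06; 34.7% called), with TGFBR2 1.04 higher and the repressors SKIL and SKI at -2.13 and -0.81. The combination at day 6 gave 7 higher and 5 lower there (49.6% called). The receptor TGFBR1, at -0.76, and ENG, at -0.94, were among those lower. TGFBI fell in the same comparison, and the part of these genes in its change was not tested. Under selumetinib alone TGFBR1 was lower too, at -1.38. TGFBI was at -0.59 ± 0.3 there (edgeR adjusted p = 0.17, and 0.0116 in a fit of only these groups). How these values relate was not tested.

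Of versican's relatives and partners in the hyaluronan matrix, VTP-50469 at day 6 raised 1 and lowered 2 of 8 tested in NOMO1 (48.8% of all genes called) and raised 2 and lowered 0 of 6 in OCI-AML3 (34.7%). TNFAIP6, a hyaluronan-binding protein of inflammation, rose by 4.12 in NOMO1, from 0.853 to 15.2 CPM, and CEMIP, which degrades hyaluronan, by 3.54 in OCI-AML3. Of elastic fibre genes, 5 rose and 5 fell among 16 tested in NOMO1 under VTP-50469 day 6 (median 0.12; 23.7% and 25.1% of all genes), while ELN itself was at 0.0679 ± 0.0592 CPM. FBN1, the microfibril protein fibrillin-1, rose by 4.45 there and by 5.57 under the combination, and LOXL4, a cross-linking oxidase, by 1.86 and 1.83.

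Other matricellular and matrix glycoproteins were counted in the same way. In OCI-AML3 VTP-50469 at day 6 raised 12 of 23 tested and lowered 3 (median 1.31; 18.8% and 16% of all genes), AGRN (agrin) by 3.02, FGL2 by 2.37 and SPOCK1, a relative of SPARC, by 1.31. Against VTP-50469, the combination had 3 higher and 10 lower (median -0.53; 16.7% and 24.6%), with SPOCK1 at -2.31 and CCN2 (connective tissue growth factor) at -3.37. In NOMO1 6 rose and 5 fell of 20 under VTP-50469 day 6 (median -0.03; 23.7% and 25.1%), FGL2 by 3.36 and the basement membrane linker NID1 with -1.70, and the combination against VTP-50469 had 5 higher and 2 lower (12.4% and 15.2%). FGL2 was called higher in both lines under each of VTP-50469 day 6, the combination at day 6 and selumetinib. The difference between the lines over this list was not tested.

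Counting was not by strand, so reads from overlapping antisense genes cannot be told apart from those of the members. SPARC (chr5:151661096-151687165) shares 381 exon bases with CLMAT3, THBS1 (chr15:39581079-39599466) 448 with FSIP1 and 411 with an antisense gene, VCAN (chr5:83471465-83582303) 453 with VCAN-AS1 and ELN (chr7:74027789-74069907) 165 with ELN-AS1. FN1 (chr2:215360440-215436172), TGFBI (chr5:136028895-136063818) and SPP1 (chr4:87975650-87983426) share none with another gene in GENCODE 29 on GRCh38. The merged exons run from 2.321 kb for SPP1 to 17.315 kb for FN1.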

How the data were processed

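RNA of 42 libraries was sequenced from poly(A)-selected, unstranded libraries, per the labels' protocols. The authors deposited raw counts of reads per gene for all libraries in 1 table whose header names GENCODE 30; the submitters' processing notes list STAR 2.11a, featureCounts of Subread 2.0.6, FastQC 0.11.9, MultiQC 1.14, DESeq2 1.44.0 and hg38. It lists 58870 genes, and 1 of them was dropped for a missing value. The 3 columns that match no sample and repeat the selumetinib columns of OCI-AML3 were not used. Each line was fitted with edgeR 4.0.16 (R 4.3.3; filterByExpr, TMM scaling, robust quasi-likelihood, 7 group means), p-values were adjusted by Benjamini-Hochberg over all genes, and standard errors are the log2 fold change divided by the square root of F. The fit was tested on simulated counts. Exon lengths and overlaps came from GENCODE 29 on GRCh38. The 7 genes, the gene lists and the tests were chosen with earlier results of these data known. Named genes besides the 7 are the up to 4 called genes of smallest adjusted p per list and comparison and the 3 with the most similar group means; levels of others (CD14, CSF1R, CD44, ELANE and single markers) were chosen after their values were seen. Alternatives were DESeq2 1.42.0, other scaling, filters, vehicle day, a replicate block, fits of only the compared groups and leaving out each library.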

Additional observations from a re-analysis of the deposited data

Results flagged for a closer look

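At day 6 the lines' responses differed in at least 1 of 3 comparisons for 4 of the 5 genes tested in both lines. The test was edgeR's fit of all 42 libraries with adjusted p-values over 18707 genes. Of all genes, 33.4% were called for VTP-50469 against DMSO, 34.9% for the combination against DMSO and 20.6% for the combination against VTP-50469. The share of all genes called in at least 1 of the 3 was not counted, so the 4 of 5 has no background beside it. All values are log2 differences, NOMO1 minus OCI-AML3. For VTP-50469 against DMSO they were -8.20 for SPARC, 2.92 for VCAN and 4.67 for TGFBI. For the combination against DMSO they were 2.27 for VCAN and 9.21 for TGFBI. For the combination against VTP-50469 they were 7.92 for SPARC, 3.68 for THBS1 and 4.54 for TGFBI. TGFBI, SPARC and VCAN were called in opposite directions in the lines for at least 1 comparison: TGFBI fell by 5.11 in OCI-AML3 and rose by 4.05 in NOMO1 under the combination, and SPARC of the combination stood 7.08 under VTP-50469 in OCI-AML3 (fitted difference -7.08) and 0.86 above it in NOMO1. VCAN was at -0.34 in OCI-AML3, a call that several settings lost, and rose by 2.52 in NOMO1 under VTP-50469, from 65.4 CPM in OCI-AML3 and 1.36 CPM in NOMO1 under DMSO day 6.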

How the results depend on the processing

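Of 2044 recomputed values of the 7 genes, 1976 kept their side of the threshold, 25 lost the call, 41 gained it and 2 reversed. A reversal is a change of sign with a call on either side, and changes of sign without a call are among the 1976. The 2044 include the line differences of ELN and SPP1, which could hardly be called because OCI-AML3 groups were at 0 counts. Both reversals came from leaving out VTP-50469 day 3 replicate 1 of NOMO1, FN1 against DMSO (-0.79 to 0.73 over the left-out libraries) and THBS1 of the combination against VTP-50469 (-0.54 to 1.15). With DMSO day 6 in place of day 3, the NOMO1 counts of called genes were 4499 for VTP-50469 day 3 (8680 with day 3), 5328 for selumetinib (8957) and 2298 for the interaction (6134). Leaving out 1 library gave 964 to 1867 genes for VTP-50469 day 3 of OCI-AML3 (1788), lowest without its replicate 2, then 1139 and 1186 without DMSO day 3 replicates 1 and 3, 970 to 1766 for its interaction (1465), lowest without selumetinib replicate 1, and 0 to 1 between its DMSO days, where no filter also gave 1. With mitochondrial genes removed, no call changed. Same-numbered libraries of a line did not deviate together over all tested genes (correlations -0.0889 to 0.0494, 0 of 63 over 0.1 in each line). A shared culture with an effect on few genes would not show in these correlations, so they cannot tell what such libraries share. The replicate block left 126 of 129 values on their side of the threshold. Across it went FN1 of NOMO1 (adjusted p = 0.0496) and VCAN of OCI-AML3 (adjusted p = 0.05), both under VTP-50469 day 6. ELN of the combination against VTP-50469 day 3 crossed it too. The block gave no other change of call. It gave 5601 called genes for VTP-50469 day 6 in OCI-AML3 (5689) and 7983 in NOMO1 (8086). With 12 counts of SPARC and 7 of THBS1 over the DMSO day 6 libraries of OCI-AML3, and 9 of ELN over DMSO day 3 of NOMO1, depth limits how well these fold changes are known.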

Other observations

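Some further genes of the receptor and protease lists are given here by their levels. CD44, the hyaluronan and osteopontin receptor, was abundant in both lines in every group, at means from 316 to 436 CPM in OCI-AML3 and from 687 to 1060 CPM in NOMO1. ELANE, the neutrophil elastase that degrades elastin and fibronectin, averaged 595 to 1330 CPM in OCI-AML3 and 422 to 1820 CPM in NOMO1. MMP14 averaged 360 to 600 CPM in OCI-AML3 in every group, and in NOMO1 6.48 CPM under selumetinib and 178 CPM under VTP-50469 day 6. The 7 genes together took 0.303% ± 0.0128 (SD, n = 3) of all counts under VTP-50469 day 6 in NOMO1, against 0.0254% ± 0.0016 under DMSO day 6, and 0.0192% ± 0.0024 against 0.0106% ± 0.0006 in OCI-AML3.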
